A study of Mus musculus with 4 samples.

Results

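Immediate early genes were followed in the lens after deletion of Celf1, by comparing conditional knockout (Celf1 cKO) with Control mice. The set held 10 genes in 4 families, which are the AP-1 subunits of the Fos family (Fos, Fosb and Fosl2) and of the Jun family (Jun, Junb and Jund), the zinc finger factor Egr1, the early response proteins Ier2 and Ier3, and Myc. All probes listed under these symbols were taken, which gave 13 probes for 9 genes among 28850 gene names on the array. Jund was listed under its older name Jund1, and its probe, matched by Entrez identifier, brought the set to 14 probes for 10 genes. Egr1 was selected on its measured signal, which was high in Celf1 cKO lenses, so its values are a description and were not tested.

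RNA of single lenses at postnatal day 6 was hybridised to Illumina MouseWG-6 v2.0 BeadChips, with n = 2 lenses (A and B) in each group. The cKO mice carried a Celf1lacZKI knock-in allele and a conditional allele whose exon 5 is removed by the Cre of the P0-3.9GFPCre (Pax6GFPCre) line, which acts from the lens placode stage and also in the pancreatic lineage. The Control mice carried the same Celf1lacZKI allele beside a wild-type one, so that every mouse had the knock-in, and the background was a mix of C57BL/6 and FVB. The labels do not say whether the lenses of a group came from separate mice or litters, and the p-values measure only the spread between these lenses.

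Immediate early genes are transcribed within minutes of a growth factor, stress or injury signal, without the need for new protein. Fos and Jun proteins pair through leucine zippers to form AP-1, which binds DNA and switches on later genes. Many of these transcripts are short-lived and carry AU-rich or GU-rich stretches near their ends, and CELF1, the protein deleted here, is an RNA-binding protein known to bind GU-rich stretches.

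Of the 14 probes, 8 were above background (detection p under 0.05, which ranks a probe against negative control beads) on at least 2 arrays, and they covered 7 genes. The other 6 were above background on 0 arrays. The following lines give the first 30 bases, in the sense direction, of the probes on which the comparisons rest, with the chromosome positions as the files list them, for which no genome build is named. The Fosl2 pair is shown because its probes gave opposite directions.
Fos, chr12:86817951-86818000, plus strand: gtccttcagcgtcaatgttcattgtcatgt
Fosl2 at transcript base 1084, chr5:32455495-32455544, plus strand: gcagaagcagtagcagtggggaccagtcat
Fosl2 at transcript base 5461, chr5:32459872-32459921, plus strand: ttaacggtgaaacggccctaggagggtcgc
Jun, chr4:94716047-94716096, minus strand: gctatcattggctcatactctctcccccgg
Junb, chr8:87501101-87501150, minus strand: cgcccagtccttccacctcgaggtttacat
Jund, chr8:73224140-73224189, plus strand: ccagtcctgcgcgtggctgcccctttgtac
Ier3, chr17:35959790-35959839, plus strand: gggcggctgtctggggtcgcctagtatgta

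The arrays of the groups differed in more than genotype. Both cKO arrays had more probes above background, 16261 and 16925 against 14542 and 14180 on the Control arrays, and a higher 99th percentile of intensity, 3208.7 and 3444.3 against 2158.4 and 1699.2. The median intensity did not separate the groups (47.9 and 49.1 against 48.3 and 43.1), and quantile normalization was used to bring them to a common scale. The X-linked RNA Xist was higher in cKO lenses (log2 fold-change 3.08 ± 0.14 (SE), limma adjusted p = 0.000946) and the Y-linked Ddx3y was lower (-3.12 ± 0.57 (SE), limma adjusted p = 0.021). Ddx3y read 6.86 and 4.83 on the log2 scale in cKO lenses against 9.06 and 8.88 in Control lenses. The labels give no sex, so genotype and sex cannot be told apart in any comparison that follows. Celf1 itself was lower in cKO lenses (-1.44 ± 0.20 (SE), limma adjusted p = 0.0108). All 7 lens markers were detected in both groups, and their summed signal was 110600 and 104300 in cKO against 119900 and 122100 in Control lenses. Of these markers, the beaded filament gene Bfsp2 (-0.74) and the epithelial factor Foxe3 (-0.82) were called lower, 2 of 7 against 5.66% of all genes, and both calls were lost without Control B, cKO A or cKO B. The median of the 7 was -0.47, and 1 of them had a value above 0. In whole lenses, fewer cells of a type and less RNA per cell cannot be told apart.

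Junb, Jund and Ier3 were elevated in Celf1 cKO lenses, by 2.66-fold, 1.76-fold and 2.85-fold, the last with 1 of the 2 Control lenses not above background. Calls required a limma adjusted p under 0.05 over all 11516 genes tested, a log2 fold-change beyond 0.58 in either direction, and an average log2 signal above 4.6. With Egr1 left out, 3 of the 6 tested members were called higher, against 6.01% of all genes, and 0 were called lower, against 5.66% of all genes. The members were chosen with earlier results of these data known, so these shares describe the set and are no test of it. Jund is 1 of the 3 called higher, and its probe was listed under an older name and matched by Entrez identifier. Both cKO values lay above both Control values in 5 of the 6 members, an arrangement seen in 32.6% of all genes, while 29.7% of all genes had the opposite arrangement. These counts cover only members that passed the detection filter, and Fos and the higher Fosl2 probe passed it through the cKO arrays alone. Ier3, called higher, was detected on both cKO arrays and on 1 Control array, so it could not have passed through Control arrays alone. Where detection on all 4 arrays was required, Jun, Junb and Jund could be tested, and 2 of these 3, Junb and Jund, were called higher, against 7.07% of all genes under that filter. The calls also depended on single lenses, since the count was 0 without cKO B and 1 without Control B, where 0.658% and 0.474% of all genes were called higher.

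**Figure D1:**
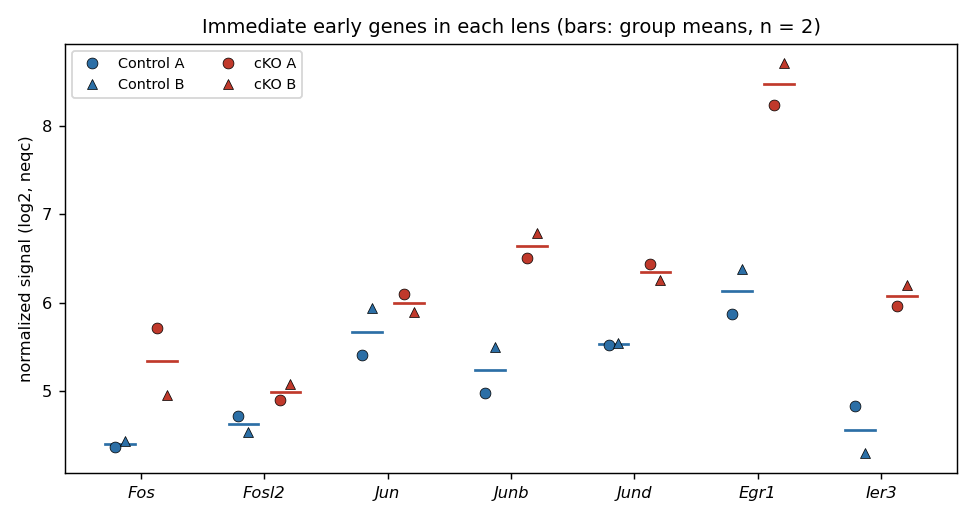
Normalized signal (log2, after neqc background correction and quantile normalization) of the 7 members above background, with 1 point for each lens and a bar at each group mean (n = 2). Red points are cKO and blue points are Control lenses. The groups are separate for all genes shown except Jun, where Control B (5.94) lies above cKO B (5.89), and the widest separation is that of Egr1.

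Among the Fos family, Fos encodes the prototype AP-1 partner of the Jun proteins. Its log2 signal was 5.72 in cKO A and 4.96 in cKO B against 4.37 in Control A and 4.44 in Control B. Both cKO lenses were above both Control lenses, and cKO A stood well above cKO B. Its probe was detected in the cKO pair but not in the Control pair, so that Fos was at least 1.51-fold higher, a bound that sets the cKO mean against the lowest detected signal on each Control array. The log2 fold-change was 0.93 ± 0.24 (SE), and Fos was not called (limma adjusted p = 0.0533). Fos was called under 7 of the 14 other processings that could give it a value, and it could not be tested with a cKO lens left out, because 1 array alone then detected it.

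Fosl2, which encodes the AP-1 subunit FRA2, gave opposite results with its probes. The probe at transcript base 5461 had an unnormalized intensity of 68.2 and 90.7 in cKO lenses and 44.4 and 36.7 in Control lenses. Only the cKO lenses gave a signal over background with it, at least 1.55-fold higher than in Control lenses. It passed the detection filter through the cKO arrays alone, and its fitted difference of 1.13 ± 0.20 (SE) on the log2 scale, with a limma adjusted p of 0.0173, is set against Control values that were not above background. Of all probes tested alone, 5.86% were called higher. The probe at base 1084 had 55.7 and 53.4 in cKO lenses against 62.3 and 50 in Control lenses, all near background, and its log2 fold-change of -0.40 ± 0.17 (SE) did not pass (limma adjusted p = 0.169). The third probe, at base 1327, was above background on 0 arrays, with intensities from 36.4 to 42.1. The mean of the retained pair gave a log2 fold-change of 0.36 ± 0.15 (SE) for the gene, which was not called (limma adjusted p = 0.151). The gene value turned to -0.43 without cKO A and to -0.29 without cKO B, where the probe at base 5461 no longer passed the detection filter, and to -0.15 when arrays were scaled to the same median over probes detected on all arrays. Which parts of the Fosl2 transcript or its isoforms the probes read is not stated in the files.

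Fosb was near background throughout, with unnormalized intensities of 43 and 53.4 in cKO lenses and 46 and 42.4 in Control lenses. Its lowest detection p was 0.0652, in cKO B, and it was not tested.

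**Figure D2:**
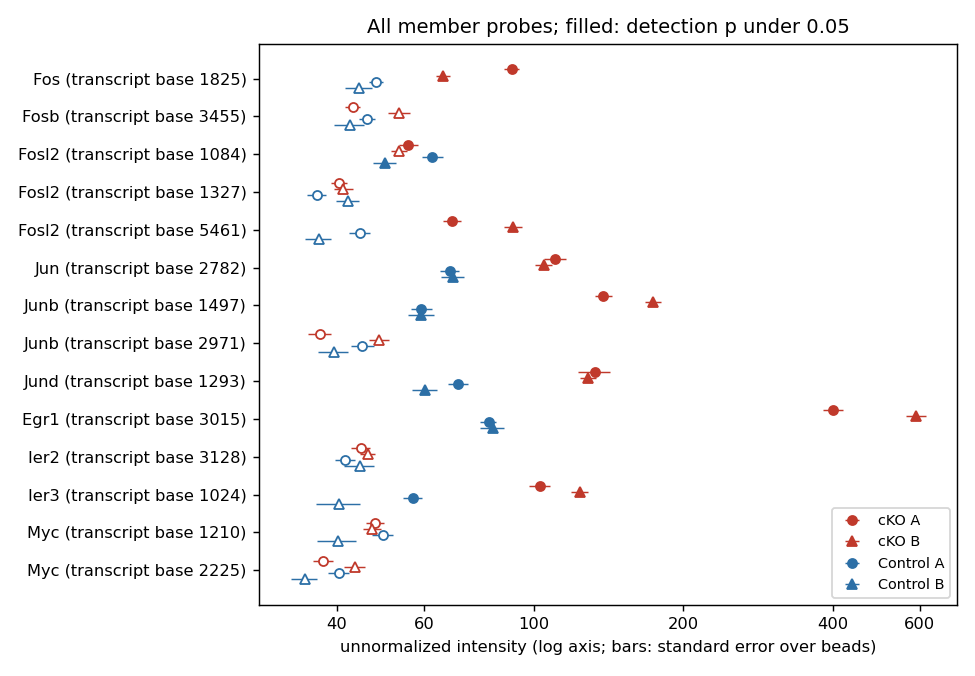
Unnormalized intensity (log axis) of the 14 member probes on each array, named by gene and by position in the transcript, with the standard error over beads as bars. Filled symbols are above background (detection p under 0.05). The Egr1 probe lies at 401.3 and 589.6 in cKO lenses, and the open symbols of Fosb, Ier2, Myc, the probe of Fosl2 at base 1327 and the probe of Junb at base 2971 lie between 34.4 and 53.4.

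In the Jun family, Junb, an AP-1 subunit that can restrain Jun activity, had a log2 signal of 6.51 and 6.78 in cKO lenses and 4.98 and 5.50 in Control lenses. Its unnormalized intensity was 137.8 and 174 against 59.2 and 59.1. The groups were well separated on both scales. The log2 fold-change was 1.41 ± 0.21 (SE), with a limma adjusted p of 0.0129. The call was lost without cKO B (1.22, limma adjusted p = 0.0719). This value rests on the probe at transcript base 1497, as the other Junb probe, at base 2971, was above background on 0 arrays (36.9 and 48.6 in cKO, 45 and 39.4 in Control lenses).

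Jund, the Jun family member that many resting cells express, had a log2 signal of 6.44 and 6.26 in cKO lenses and 5.52 and 5.55 in Control lenses. The Control lenses were nearly equal and both lay below the cKO lenses. The difference was 0.82 ± 0.14 (SE) on the log2 scale, with a limma adjusted p of 0.0197. The call was lost without cKO A (limma adjusted p = 0.109), cKO B (0.0967) or Control B (0.0738).

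Jun, the founding member of the family, had a log2 signal of 6.10 and 5.89 in cKO lenses and 5.41 and 5.94 in Control lenses. Control B exceeded cKO B, so the groups overlapped. The log2 fold-change was 0.33 ± 0.20 (SE), and Jun was not called (limma adjusted p = 0.317). On the unnormalized scale the same probe had 110.2 and 104.4 in cKO and 67.5 and 68.5 in Control lenses and did not overlap. Jun was called when no scaling between arrays was applied (0.95) or when all arrays were set to the same median (0.92), settings under which 97.7% and 97.3% of all calls were higher in cKO lenses.

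Ier3, a stress-inducible protein linked to cell survival, had a log2 signal of 5.96 and 6.20 in cKO lenses and 4.84 and 4.30 in Control lenses. Both cKO lenses were higher than both Control lenses, of which A was above background and B was not. On the log2 scale the difference was 1.51 ± 0.21 (SE), with a limma adjusted p of 0.011. Control B, at 4.30, lay below the lowest signal of a detected probe on that array, 4.765, so the size of this difference is uncertain. The call was lost without cKO B (limma adjusted p = 0.064) and without Control B (0.0516). Ier2, a short nuclear protein of the early response, was above background on 0 arrays, with intensities of 44.7 and 46.1 in cKO and 41.5 and 44.4 in Control lenses.

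Myc, the growth-promoting transcription factor, was also above background on 0 arrays with either probe. The probe at transcript base 1210 had 47.8 and 47 in cKO lenses and 49.5 and 40.1 in Control lenses, and the probe at base 2225 had 37.5 and 43.5 against 40.3 and 34.4. A Myc level below the detection limit of these probes cannot be told apart from no transcript.

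Egr1, a zinc finger factor that binds GC-rich sites, was above background on all 4 arrays. Its unnormalized intensity was 401.3 in cKO A and 589.6 in cKO B against 80.9 in Control A and 82.4 in Control B. The log2 signal was 8.24 and 8.70 in cKO lenses and 5.88 and 6.38 in Control lenses, a 5.055-fold difference of the group means. The difference lay at the 99.84th percentile of all genes tested, which describes the choice of the gene and is no test. The mean log2 signal of Egr1 over the 4 lenses lay at the 71.3rd percentile of all genes, while Fos (18.6th) and Fosl2 (15.5th) were among the dimmer ones, and Jun (45.4th), Junb (47.6th), Jund (47.7th) and Ier3 (33.4th) lay below the middle. A level is not comparable between probes, and these percentiles say only how close to background each gene was read.

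The genes whose 4 centred log2 values lay nearest to those of Egr1 were Rgs16, Rdm1, Flnc, Sqstm1 and Otx1, at Euclidean distances of 0.255, 0.320, 0.379, 0.431 and 0.489. Rgs16, a regulator of G protein signalling, had a log2 signal of 8.17 and 8.49 in cKO against 5.72 and 5.97 in Control lenses, and Sqstm1, the autophagy receptor p62, had 12.4 and 12.7 against 10.4 and 10.3. Flnc and Otx1 were not detected in Control lenses, so their distances and places in this order rest on Control values not above background. With 4 samples, a near pattern amounts to a difference between groups of like size.

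Genes that work with the members were counted in 5 lists. In the list of other early response genes, 23 of 40 were tested, of which 6 were called higher and 2 lower, where 6.01% and 5.66% of all genes were. Among the 6 is Plk2, named after its values were seen, which passed the detection filter through the cKO arrays alone. Plk2 was called under 5 of 13 other processings, and its call was lost without Control A or Control B. With detection required on all 4 arrays, 5 of 19 were called higher and 3 lower, against 7.07% and 8% of all genes under that filter. The median log2 fold-change of the 23 was 0.22, beside 0.01 over all genes. Its excess over the median of all genes, 0.21, fell to 0.05 when cKO A was left out, to 0.00029 when cKO B was, to 0.12 and 0.11 when Control A or Control B was, and to 0.06 with detection on all 4 arrays. With no detection filter it was -0.0065 over the 38 genes with a probe, and 0 were called in either direction, where 155 of all genes were called by limma and 4801 had an unadjusted p under 0.05. The highest calls were Plk3, a stress-response kinase (1.36 ± 0.19 (SE), limma adjusted p = 0.0113), Sgk1, a serum-induced kinase (1.32 ± 0.18 (SE), limma adjusted p = 0.0107), Gadd45a, a growth arrest gene (1.06 ± 0.22 (SE), limma adjusted p = 0.0287), and Klf6, a zinc finger factor (0.80 ± 0.15 (SE), limma adjusted p = 0.0219). Of the relatives of Gadd45a, Gadd45b and Gadd45g were lower, at -1.50 ± 0.18 (SE, limma adjusted p = 0.00805) and -0.72 ± 0.15 (SE, limma adjusted p = 0.0305). The value of Gadd45g turned positive where no scaling between arrays, or the same median over all probes, was used, settings that moved the median of all genes to 0.57 and 0.53. The feedback phosphatase Dusp1 (-0.01, limma adjusted p = 0.969) and the AU-rich element binding protein Zfp36 (-0.31, limma adjusted p = 0.338), which are themselves classic immediate early genes, were not called. Dusp1 and Zfp36 were chosen after their values were seen. With 1 lens left out, 1 to 4 genes of this list were called higher. The calls of Plk3 and Sgk1 were lost without cKO B, that of Gadd45b without Control B, those of Klf6 without cKO A, cKO B or Control B, that of Gadd45a without cKO A or either Control lens, and that of Gadd45g without any 1 lens.

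The other 4 lists are given against the same 6.01% of all genes called higher, 5.66% called lower and median of 0.01. Of 13 other bZIP partners of AP-1, 7 were tested and 1 was called higher, Atf3, a stress-induced bZIP factor that no Control array detected (at least 1.53-fold, limma adjusted p = 0.0414). Atf3 thus passed the filter through the cKO arrays alone, and it was called under 6 of 13 other processings. The median log2 fold-change of these 7 was 0.21. Its excess over all genes ranged from 0.02 (without Control A) to 0.36 (without Control B) with 1 lens left out. Of 19 upstream kinases and transcription regulators, 15 were tested and 1 was called higher, the p38 kinase Mapk14 (0.88 ± 0.14 (SE), limma adjusted p = 0.015). The median of these 15 was 0.18, and its excess over all genes ranged from 0.04 (without cKO A) to 0.22 (without Control A). Of 11 genes of the Myc network and Egr corepressors, 5 were tested and 2 were called lower, the Max partner Mxd1 (-1.16 ± 0.17 (SE), limma adjusted p = 0.0118) and Mycl, a relative of Myc (-1.26 ± 0.20 (SE), limma adjusted p = 0.0148), with a median of -0.56. Of 13 proteins that bind AU-rich or GU-rich ends, 11 were tested and 1 was called, Celf1 itself, with a median of -0.16, which lay from -0.26 (without Control A) to -0.04 (without cKO A) relative to all genes. With 1 lens left out, Mxd1 and Mycl were no longer called without cKO B or Control B, Mapk14 without these or cKO A, Celf1 without Control B, and Atf3 without Control A or Control B.

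**Figure D3:**
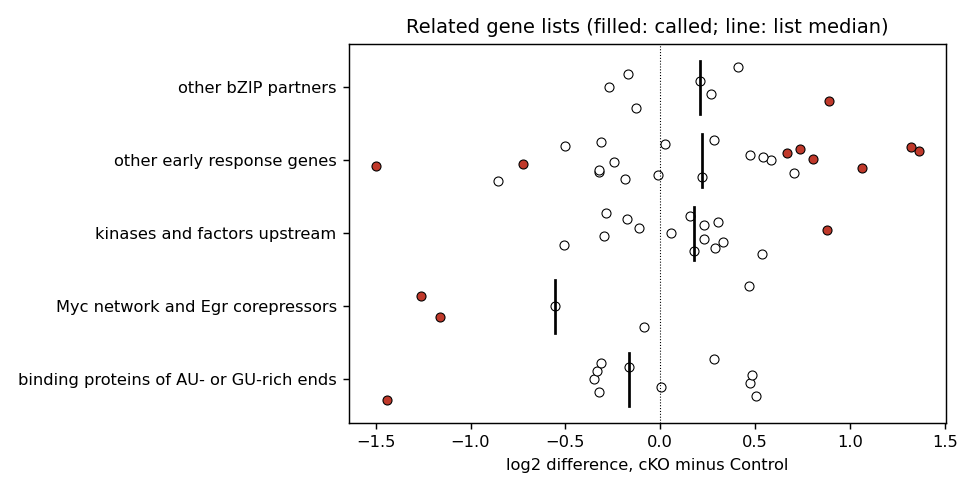
Log2 difference between cKO and Control lenses of the tested genes in the 5 related lists, 1 point for each gene, filled where called, with a vertical line at the list median. Called genes lie on both sides of 0 among the other early response genes and only below 0 in the list of Myc network genes and corepressors.

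Markers of other cell types were read beside these results. None of 6 retina and 5 muscle markers was detected on any array. Of the 5 vessel markers, which were all tested, 1 was called higher, the endothelial sialomucin Emcn (log2 fold-change 1.15 ± 0.20 (SE), limma adjusted p = 0.0184). Cdh5 was at 0.60, Pecam1 at -0.06, Tek at -0.27 and Kdr at -0.61, none of them called, and the list median was -0.06. The summed signal of this list was 181.4 and 178.4 in cKO against 153.8 and 141.6 in Control lenses. Of the 6 macrophage markers, 3 were tested and 1 was called higher, Cd68 (at least 1.27-fold), which passed the detection filter through the cKO arrays alone. Csf1r (-0.11) and Aif1 (-0.07) were not called, the list median was -0.07, and the summed signals were 46.4 and 57.1 against 33.1 and 37.2. Of the 5 blood markers, 3 were tested and Slc4a1, the red cell anion exchanger, was called lower (-1.05). The summed signals of the 5 blood markers were 749.3 and 319.4 against 618.4 and 510.5, and the 1 tested pigment cell marker was not called. Over all genes, 6.01% were called higher and 5.66% lower. These 3 marker calls were lost without Control B, that of Emcn also without cKO A or cKO B, that of Slc4a1 also without cKO B, and that of Cd68 also without Control A. Cd68 was called under 6 of 13 other processings. The part of vessel, macrophage or blood cells, of sex and of the difference in bright signal between arrays in the values of the members was not tested.

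The letters of the probes and promoters were searched for binding motifs. None of the 14 probes held ATTTA, the core of AU-rich elements, or the GU-rich letters TGTTTG and TGTGT, which 3.19%, 2.02% and 7.45% of all 45263 probes held. These are short windows and do not show the whole transcript ends. RefSeq promoter windows (250 bases before to 50 after the start, GRCm38.p6) were matched for 7 of the 10 members, and not for Egr1, Ier2 and Myc. The EGR site letters GCGNGGGCG, searched on both strands, occurred in Fosb and Fosl2, against 5.55% of 32851 promoters, and TATAAA in Fos and Junb, against 13.6%. The TATAAA letters began 33 bases before the start in Fos and at the first transcribed base in Junb. The CArG box (1.63% of promoters), TGACGTCA (1.79%) and TGANTCA (7.81%) occurred in 0 of the 7. Sites outside these windows, and sites that differ from these letters, were not counted. The 100 bases before the start of the genes with a motif there are given below, with the motif in capitals. A match describes letters only and does not show a bound site.
Fos, chr12:85473790-85473889, plus strand: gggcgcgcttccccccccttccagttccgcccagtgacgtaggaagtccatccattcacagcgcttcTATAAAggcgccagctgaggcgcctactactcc
Fosl2, chr5:32136372-32136471, plus strand: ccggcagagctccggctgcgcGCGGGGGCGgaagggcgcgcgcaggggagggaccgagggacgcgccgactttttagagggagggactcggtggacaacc
Fosb, chr7:19310046-19310145, minus strand: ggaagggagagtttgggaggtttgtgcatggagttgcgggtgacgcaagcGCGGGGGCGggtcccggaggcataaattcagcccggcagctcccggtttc

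The values were set beside those of the other processings. Egr1 was higher in cKO lenses under all 15 other processings, with a log2 difference from 1.86 to 3.08, and from 2.07 to 2.63 with 1 lens left out. Egr1 was selected on these same arrays, so these values describe the choice of the gene and are no test. Junb was called under 13 of 15 other processings, with a log2 difference from 0.70 to 1.998. Jund was called under 11 of 15, with 0.51 to 1.44, and Ier3 under 12 of 14, with 0.79 to 2.97. Fosl2 lay above 0 under 13 of 14.

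**Figure D4:**
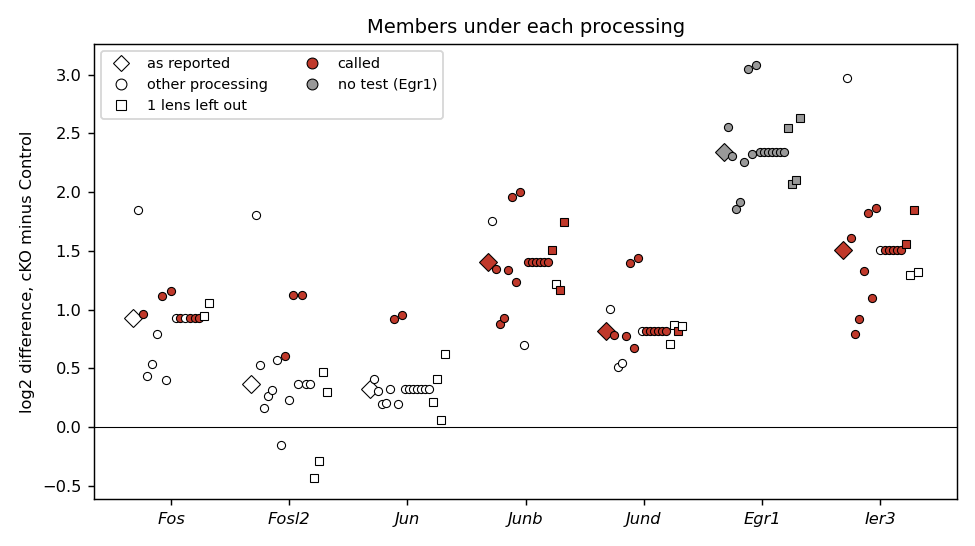
Log2 difference between cKO and Control lenses of the 7 members under the reported processing (diamonds), other processings (circles) and with 1 lens left out (squares), filled red where called. Grey symbols are Egr1, which was not tested. Egr1, Junb, Jund, Ier3, Jun and Fos stay above 0 in all of them, and Fosl2 lies on both sides of 0.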

How the data were processed

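Per the file headers, the authors deposited an unnormalized and a rank-invariant normalized table of signal intensity, with a detection p-value, a bead standard error and other bead numbers for each probe. The unnormalized intensity was used, with the detection p-value of the normalized table. Of 45281 probes, 18 lines with shifted cells were left out, and 44 symbols replaced by dates were restored. Background correction and quantile normalization used the neqc function (limma 3.58.1 under R 4.3.3, offset 16). Probes with a detection p under 0.05 on at least 2 arrays were kept (16262), and a gene's log2 values were averaged. Differences between groups were fitted by lmFit and eBayes, two-sided, with Benjamini-Hochberg adjustment over 11516 genes. The thresholds follow the study's methods, but limma replaced its count model because the values are intensities. An exact permutation test of 2 against 2 cannot go below p = 0.333.

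Named are all members, Celf1, Xist and Ddx3y, at most 4 called genes of largest change in each list and direction, and the 5 genes nearest to Egr1. Cell type markers, and genes stated so, were named after their values were seen. The members and lists were chosen with earlier results of these data known. The fit was tested on simulated data. Tables were read with Python 3.11.15. With 2 arrays in each group, their number limits the precision.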

Additional observations from a re-analysis of the deposited data

How the results depend on the processing

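The 1344 calls over all genes (51.5% higher) and the 3 calls among members changed with the scaling of the arrays, a floor on low values, the detection filter and the lens left out. Calls over all genes and among members were 5417 and 5 with the same median over all probes (97.3% higher, median of all genes 0.53), 5788 and 6 with no normalization (97.7%, 0.57), 2690 and 3 with the same median over probes detected on all arrays (24.8%, -0.19), 7 and 0 when the authors' normalized values, floored at 1, were used (71.4%), but 1349 and 4 when 16 was added to those values, 155 and 0 with no detection filter, and 789 and 2 with an offset of 50. They were 1472 and 5 with a detection p under 0.01, and 1475 and 5 with the brightest probe of each gene. Fosl2 turned to -0.15 with the same median over probes detected on all arrays and to -0.40 with the probe at base 1084, and ranged from -0.43 to 0.47 with 1 lens left out. Leaving out 1 lens gave 113 to 1315 calls over all genes and 0 to 3 among members. The cause of these changes was not tested. With the replicate letter as a replicate block, 1757 genes and 4 members were called. The letters are not stated to pair lenses, and across genes the A minus B differences of the groups correlated at -0.01. Signals near background limit Fos, Fosl2 and Ier3, and leave Fosb, Ier2 and Myc unread. The Control intensities of Junb (59.2 and 59.1) and Jund (70.2 and 60.1) were also low. With an offset of 50, the log2 difference of Junb was 0.88 and that of Jund was 0.51, and Jund was not called.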
